A study of Mus musculus with 5 samples.

Results

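The DNA replication machinery was examined as a set of 44 genes, listed by name and read through the array probes whose platform annotation carries one of those symbols. The set spans origin licensing, the replicative helicase, the polymerases with primase, and the sliding clamp with its loader and the single-strand binding protein RPA. It also spans strand joining and topology, and nucleotide supply with uracil removal. Of the 44 genes, 41 had a probe (68 probes in all), out of 16593 genes with a named probe on the array. Gins1, Gins2 and Rfc3 had none under their symbols. Gmnn, Orc1, Orc4, Pola1 and Prim1 had probes detected on at most 1 of the 5 arrays and were not tested, which left 36 genes for the comparison. In 35 of these the brightest probe was detected on every array, so the filter on dim probes did not choose them for a difference. The exception was Orc2, detected in both ESC samples but in only 1 of the 3 after N2B27.

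Total RNA came from 46C mouse embryonic stem cells, a line with a green fluorescent protein reporter at the neural gene Sox1, and each sample was read on 1 single-colour Illumina bead array. ESC cells (n = 2) were cultured on gelatin, with neither feeders nor serum, in N2B27 medium plus LIF, BMP and PD173074, an inhibitor of FGF receptors, at 100 nM. N2B27 48 hr cells (n = 3) were trypsinized, washed, replated and held for 48 hr in N2B27 alone. Both groups share the cell line and the basal medium. Replating and the loss of all 3 additions came together, so their parts in any difference cannot be told apart. The labels do not say whether replicates were separate cultures, so the spread behind the p-values is that between these samples and may be technical only. Both groups come from 1 line.

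Each array held 25697 probes, of which 42.1% to 47.5% were detected (detection p under 0.05), and the mean signal was lowest on N2B27 48 hr replicate 1 (187, against 235 to 264 on the other arrays). Markers of pluripotent identity differed between the groups, and of 9 tested 4 were higher and 5 lower after 48 hr. Nanog was 33.6-fold lower and Pou3f1, an epiblast factor, 44.5-fold higher. Changes were smaller for Pou5f1 (1.36-fold lower) and Otx2 (1.34-fold higher). The summed signal of this list ran from 14834 to 15632 in ESC and from 22992 to 23422 in N2B27 48 hr. Among markers of neural cells 2 of 7 with a probe were tested and 1 rose, and Sox1, Pax6, Tubb3, Neurog2 and Dcx were undetected on every array. The summed signal of the neural list ran from 103 to 109 in ESC and from 116 to 204 in N2B27 48 hr. For primitive endoderm 3 of 7 were tested, the sum was 559 to 616 in ESC and 91.4 to 148 in N2B27 48 hr, Lama1 was 8.24-fold lower and Dab2 1.90-fold higher, and Gata4, Gata6, Pdgfra and Afp were undetected throughout. For trophectoderm 2 of 6 were tested, the sum was 29.7 to 29.9 in ESC and 102 to 112 in N2B27 48 hr, Krt18 was at least 3.61-fold higher, and Elf5 and Hand1 were undetected. For mesoderm and endoderm 2 of 7 were tested and neither passed (sums of 40.9 to 41.8 and 43.9 to 45.2). In the fibroblast list 5 of 11 were tested, and its sum ran from 432 to 464 in ESC and from 806 to 1114 in N2B27 48 hr. Acta2 was at least 18.3-fold, Thy1 4.92-fold and Dcn at least 2.84-fold higher, Vim 1.82-fold and Fbln2 at least 1.48-fold lower, and Col1a1, Col1a2, Col3a1 and Postn were undetected throughout. Whether cells of these types had a part in the replication results was not tested.

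Replication begins in G1, when the origin recognition complex, Cdc6 and Cdt1 load the ring of Mcm2 to Mcm7 onto DNA, a step called licensing. At the start of S phase Cdc45 and the GINS complex join the ring to form the working helicase, after which polymerase alpha with primase lays down primers and polymerases delta and epsilon extend them, held to DNA by the PCNA clamp that replication factor C loads. Mouse embryonic stem cells divide fast with a short G1, and many replication genes are transcribed under E2F factors.

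Most of the machinery changed little in signal between the groups, and no member that passed moved as much as 2-fold. Of the 36 genes tested, 14 passed the test (adjusted p under 0.05 in limma), 11 of them higher and 3 lower after 48 hr in N2B27, and 22 did not pass. The share called was 38.9%, against 45.2% of all 8828 genes tested, so that being called was no more frequent here than across the array. Higher calls made up 30.6% of the tested members against 23.8% of all genes, and lower calls 8.33% against 21.4%. Among all genes 12.7% both passed and moved at least 2-fold, against 0 members in the limma fit. Without ESC replicate 1 the calls were 8 higher and 0 lower, while the 3 falls were -0.28 (Cdc6), -0.33 (Rpa3) and -0.32 (Ung). The changes ran from -0.39 (Rpa3) to 0.93 (Rfc4) on the log2 scale, with a median of 0.14 against 0.05 for all tested genes, and the median size of change regardless of sign was 0.246 against 0.330. The 95% interval of the change lay within 2-fold in both directions for 33 of 36 members (91.7%), against 77.5% of all genes. The 3 others were Rfc4, Pold2 and Pola2. These are signals of bulk RNA, in which fewer cells of a type, such as cells in S phase, and less RNA per cell cannot be told apart.

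**Figure D1:**
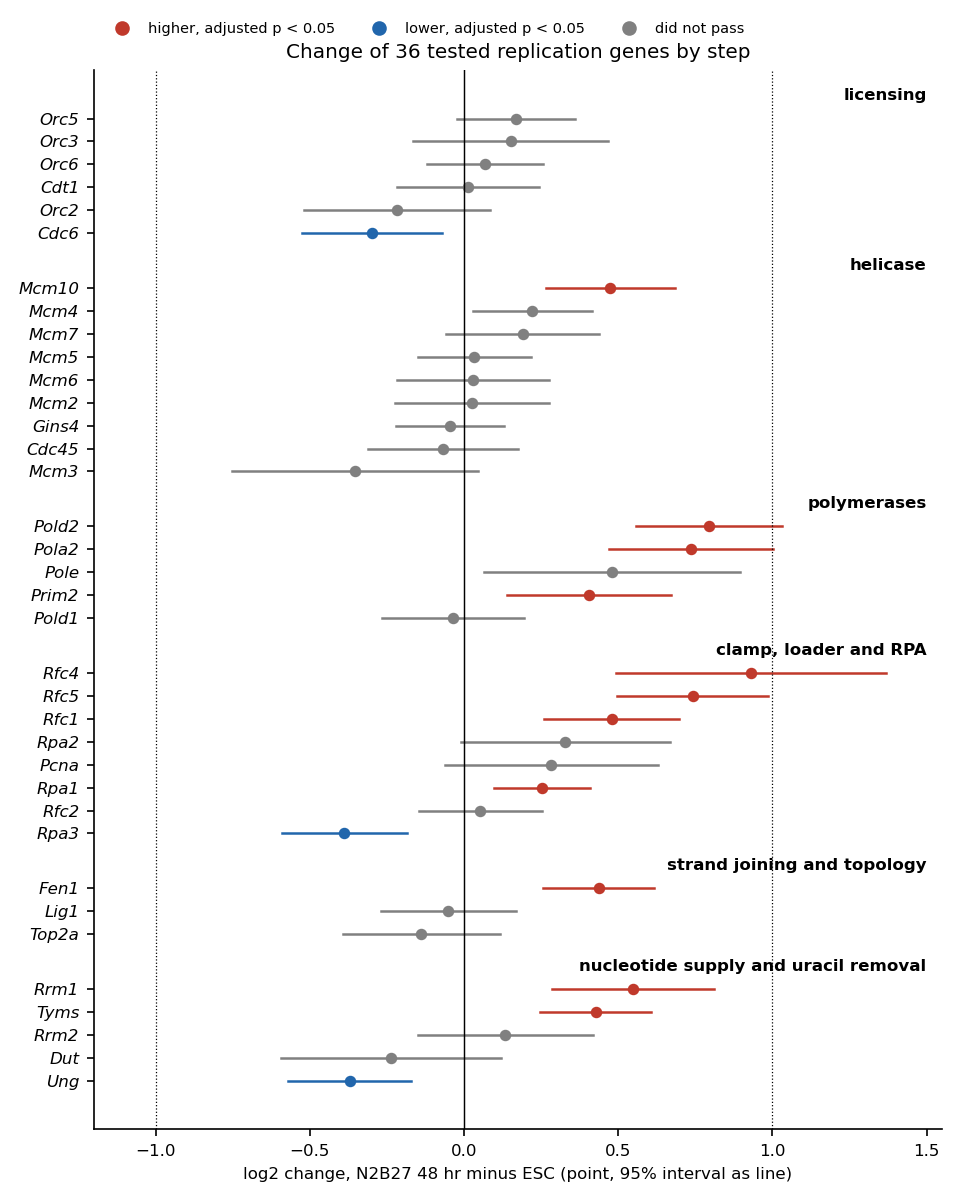
Log2 change (N2B27 48 hr minus ESC, x axis) of each of the 36 tested genes, grouped by step of replication; points are estimates, lines 95% intervals, and dotted lines mark 2-fold. Higher calls gather among the polymerase and clamp loader genes, with Rfc4 at 0.93. The clamp gene Pcna did not pass, and Rpa1 and Rpa3 passed in opposite directions. Among the licensing and helicase genes Cdc6 and Mcm10 alone passed, with Mcm3 at -0.35 not passing. If each array is scaled to the median of all its probes, the calls other than Rfc4 no longer pass, with their directions kept.

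Scaling sets how these small changes are read. When each array was scaled to the median over all its probes, the median change of all genes moved by -0.155, and 1 member (Rfc4) was called higher and 0 lower in limma (all 14 main calls kept their sign, and 10 of the 36 members changed sign). The 3 falls were larger under that scaling, at -0.56 for Cdc6, -0.59 for Rpa3 and -0.55 for Ung, with adjusted p from 0.0998 to 0.136. Set against the median of all genes, these falls were -0.45, -0.49 and -0.45, and -0.35, -0.44 and -0.42 under quantile normalization. Scaling to the median over probes detected on all 5 arrays, chosen after seeing the data, gave 12 higher and 4 lower and kept all 14. Relative to the median of all genes, the median member stood at 0.094 under quantile normalization, 0.017 under either median scaling and 0.048 under cyclic loess.

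Promoters of 6 members are shown, 2 for the largest rises, 2 for the largest falls, and those of Mcm5 and Mcm6, ring subunits that did not pass. The last pair was chosen after the data were seen, and a promoter of it was printed only if it held an E2F match. No such condition was set for the called members, so the printed promoters cannot be compared for E2F matches by call. Mcm2, a ring subunit that did not pass either, had no E2F match in its promoter. Each runs from 250 bases before to 50 after the start of the gene in RefSeq (GRCm38.p6), 5′ to 3′ on the gene's strand. Capitals mark matches on either strand to an E2F motif in the forms TTTCCCGC, TTTCGCGC, TTTGCCGC and TTTGGCGC, or to the CCAAT box.
Rfc4, chr16:23127681-23127980, minus strand: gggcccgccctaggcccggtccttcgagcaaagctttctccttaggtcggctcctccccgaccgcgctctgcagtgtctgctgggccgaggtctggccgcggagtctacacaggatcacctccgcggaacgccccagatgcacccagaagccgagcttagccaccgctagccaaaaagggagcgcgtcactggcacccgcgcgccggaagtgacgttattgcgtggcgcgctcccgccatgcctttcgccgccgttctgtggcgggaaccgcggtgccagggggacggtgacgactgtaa
Pold2, chr11:5878207-5878506, minus strand: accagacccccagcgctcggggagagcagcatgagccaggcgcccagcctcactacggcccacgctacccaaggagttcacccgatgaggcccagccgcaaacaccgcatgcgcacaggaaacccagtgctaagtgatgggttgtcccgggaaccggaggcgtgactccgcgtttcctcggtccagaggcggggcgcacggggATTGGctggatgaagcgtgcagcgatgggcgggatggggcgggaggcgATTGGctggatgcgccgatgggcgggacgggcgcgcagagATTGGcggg
Rpa3, chr6:8259092-8259391, minus strand: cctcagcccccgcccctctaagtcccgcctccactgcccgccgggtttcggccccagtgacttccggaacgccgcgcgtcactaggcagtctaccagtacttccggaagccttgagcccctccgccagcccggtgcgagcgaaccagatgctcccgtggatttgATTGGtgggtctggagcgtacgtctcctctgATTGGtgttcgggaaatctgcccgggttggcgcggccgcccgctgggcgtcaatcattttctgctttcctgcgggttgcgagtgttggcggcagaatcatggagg
Ung, chr5:114130185-114130484, plus strand: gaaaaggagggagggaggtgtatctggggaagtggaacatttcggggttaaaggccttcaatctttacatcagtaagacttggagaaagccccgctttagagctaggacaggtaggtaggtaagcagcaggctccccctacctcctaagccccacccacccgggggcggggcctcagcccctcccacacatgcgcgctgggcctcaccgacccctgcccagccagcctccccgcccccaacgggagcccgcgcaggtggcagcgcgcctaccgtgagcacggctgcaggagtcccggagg
Mcm5, chr8:75109259-75109558, plus strand: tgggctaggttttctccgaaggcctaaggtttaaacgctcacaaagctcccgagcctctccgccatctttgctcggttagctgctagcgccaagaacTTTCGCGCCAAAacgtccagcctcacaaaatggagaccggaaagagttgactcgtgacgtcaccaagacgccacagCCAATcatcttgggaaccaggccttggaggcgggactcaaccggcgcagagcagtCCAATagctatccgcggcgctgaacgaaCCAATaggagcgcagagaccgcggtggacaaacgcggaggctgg
Mcm6, chr1:128359656-128359955, minus strand: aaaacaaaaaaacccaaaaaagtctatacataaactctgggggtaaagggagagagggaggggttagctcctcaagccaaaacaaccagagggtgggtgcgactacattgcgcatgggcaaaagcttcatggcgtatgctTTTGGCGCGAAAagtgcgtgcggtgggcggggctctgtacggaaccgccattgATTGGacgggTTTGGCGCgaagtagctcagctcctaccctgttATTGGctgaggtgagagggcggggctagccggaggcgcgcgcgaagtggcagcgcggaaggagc

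Of the 44 members, 36 had at least 1 promoter in the table. The E2F letters were present in 12 of their 44 promoters (27.3%), against 2.26% of all 32851 promoters of the same length, and the CCAAT box in 25 (56.8%) against 37.4%. The 12 promoters with an E2F match belong to Cdc6, Cdt1, Orc1, Orc3, Mcm3, Mcm5, Mcm6, Mcm7, Pola1, Pold1, Rfc3 and Lig1. Of these, Orc1, Pola1 and Rfc3 were not tested, and Cdc6 alone was called among the 9 others. The letters stood in 1 of 15 promoters of called members (6.67%) and in 8 of 22 promoters of members that did not pass (36.4%), a difference given as a description with no test. In Mcm5 the 2 E2F matches overlap each other, as do the first and second of the 3 in Mcm6. The promoters printed for Rfc4, Pold2, Rpa3 and Ung hold no exact match to the E2F forms searched, and looser forms were not searched. Those of Pold2 and Rpa3 hold 3 and 2 CCAAT boxes.

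In the main fit licensing genes hardly moved. Of 9 genes 6 were tested and 1 fell, beside 21.4% lower and 23.8% higher among all genes. The other 5 did not pass, and the median change was 0.04. None rose in limma, also at an unadjusted p under 0.05 (0 genes). The one that fell was Cdc6, the ATPase that works with the origin recognition complex to load the ring. Its log2 signal was 8.72 and 8.68 in ESC, and 8.33, 8.39 and 8.49 in N2B27 48 hr, with no overlap. The change was -0.30 ± 0.103 (SE), or 1.23-fold lower (adjusted p = 0.0365). This call was lost in 8 of 19 alternatives, among them leaving out ESC replicate 1 or 2 or N2B27 48 hr replicate 1 or 2 (adjusted p from 0.0695 to 0.226). A dimmer probe of Cdc6, detected on 1 array of each group, gave -0.12 (adjusted p = 0.660). Scaled to the median of all probes, the 6 licensing changes ran from -0.56 to -0.01 (median -0.15) and 0 passed. The median of all genes moved by -0.155 under that scaling. With an offset of 1 the licensing changes ran from -0.52 to 0.25.

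Cdt1, the other loading factor, differed by 0.01, with a 95% interval from -0.22 to 0.24. Its log2 signal was 10.35 and 10.08 in ESC and 10.28, 10.30 and 10.12 in N2B27 48 hr, so the groups overlapped. In the origin recognition complex Orc5 changed by 0.17, Orc3 by 0.15, Orc6 by 0.07 and Orc2 by -0.22, and none passed (adjusted p from 0.142 to 0.565). Both tested probes of Orc5 gave positive changes (0.17 and 0.23). The 2 of Orc2 had opposite signs (-0.22 and 0.10). Gmnn, which encodes the Cdt1 inhibitor geminin, had 1 probe, at raw signals of at most 68.5 and detected on 1 array. The Orc1 probe read 49.3 to 56.9 and was detected on none. Such readings set no level for either gene and do not say that it is silent.

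Mcm10 was the helicase gene that passed. Of 11 genes 9 were tested, with 1 higher, 0 lower and 8 that did not pass, and a median change of 0.03. Across all genes 23.8% were higher and 21.4% lower. Scaled to the median of all probes, 0 of the 9 passed and their median was -0.18. All 6 ring subunits, Mcm2 to Mcm7, were tested and 0 of them passed in limma, with 1 (Mcm4) at an unadjusted p under 0.05. No helicase gene was lower at that unadjusted level either (0 genes). For 5 of the 6 the 95% interval lay within 1.5-fold in either direction, Mcm3 being the exception.

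Mcm5 read 12.06 and 11.89 in ESC and 12.02, 11.92 and 12.09 in N2B27 48 hr, a change of 0.03 (95% interval -0.15 to 0.22). Mcm2 read 10.24 and 10.43 in ESC and 10.50, 10.42 and 10.16 in N2B27 48 hr, a change of 0.03 (-0.22 to 0.28). In both genes the groups overlapped. Mcm6 changed by 0.03 with its brightest probe (-0.22 to 0.27) and by -0.15 to 0.11 over its 4 probes, none of which passed. Mcm7 changed by 0.19 (-0.06 to 0.44).

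Mcm4 and Mcm3 were the ring subunits nearest the threshold, on opposite sides of 0. For Mcm4 the log2 signal was 12.25 and 12.11 in ESC and 12.26, 12.45 and 12.50 in N2B27 48 hr, a change of 0.22 ± 0.0869 (adjusted p = 0.0604). A dimmer probe of the same gene passed (0.43, adjusted p = 0.0391) and the third did not (0.18). Without N2B27 48 hr replicate 1 the brightest probe passed as well (0.28, adjusted p = 0.0175). Mcm3 stood at 8.88 and 9.17 in ESC and at 9.09, 8.47 and 8.46 in N2B27 48 hr. Replicate 1 of N2B27 48 hr thus lay among the ESC arrays and the other two lay below them. The change was -0.35 ± 0.181 (adjusted p = 0.140), and -0.56 without that replicate (adjusted p = 0.00569). It also passed under cyclic loess (-0.49, adjusted p = 0.0405) and under scaling to probes detected on all arrays (-0.38, adjusted p = 0.0475).

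Mcm10, a factor that helps start the assembled helicase, was higher in every N2B27 48 hr array. It read 9.96 and 10.14 in ESC and 10.59, 10.58 and 10.42 in N2B27 48 hr, with no overlap. The change was 0.47 ± 0.0947, or 1.39-fold (adjusted p = 0.00209), and its second probe gave 0.48 (adjusted p = 0.0061). Mcm10 was thereby the member with 2 probes that were both called. Its companions in the working helicase did not pass: Cdc45 changed by -0.07 (95% interval -0.31 to 0.17) and Gins4 by -0.05 (-0.22 to 0.13).

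**Figure D2:**
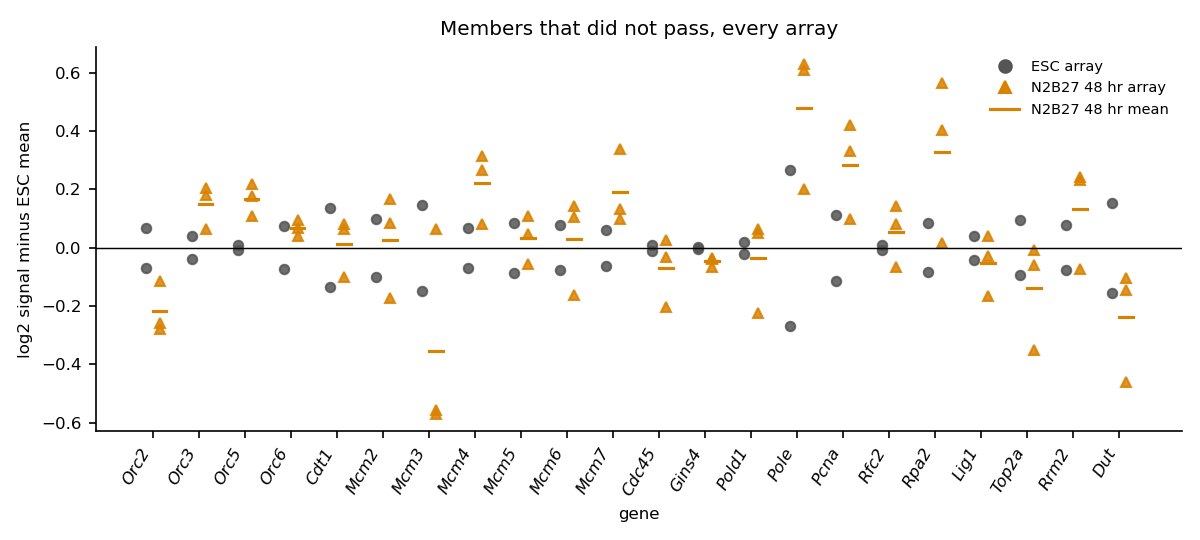
Log2 signal of the 22 members that did not pass, on each array, as the difference from that gene's ESC mean (y axis); circles are the 2 ESC arrays, triangles the 3 N2B27 48 hr arrays, and short bars the N2B27 48 hr mean. In many genes, Mcm2, Mcm5 and Mcm6 among them, triangles lie on both sides of 0; Mcm3 has 1 triangle among the ESC circles and 2 well below, and Pole and Rpa2 have wide spreads.

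Genes of the polymerases moved upward or did not pass. Of 7 genes 5 were tested, with 3 higher and 0 lower in limma (4 and 0 at an unadjusted p under 0.05), and their median change was 0.48. Of all genes 23.8% were higher. Scaled to the median of all probes, 0 of the 5 passed and their median change was 0.25. Pold2, the second subunit of polymerase delta, which makes the lagging strand, read 8.66 and 8.69 in ESC and 9.59, 9.51 and 9.30 in N2B27 48 hr. It rose by 0.79 ± 0.107, or 1.73-fold (adjusted p = 0.000145). Pola2, the B subunit of polymerase alpha, read 7.59 and 7.54 in ESC and 8.41, 8.13 and 8.36 in N2B27 48 hr. It rose by 0.74 ± 0.12, or 1.67-fold (adjusted p = 0.000548). In both genes all N2B27 48 hr arrays stood clear of the ESC arrays.

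Prim2, the large subunit of primase, gave different answers by probe. The brighter probe read 6.999 and 7.15 in ESC and 7.43, 7.50 and 7.50 in N2B27 48 hr, a rise of 0.41 ± 0.12 (adjusted p = 0.0184). The dimmer probe, detected on all arrays too, gave -0.11 ± 0.147 (adjusted p = 0.589), with overlapping groups. The call of the brighter probe was also lost without ESC replicate 1 or 2, without N2B27 48 hr replicate 2 (adjusted p = 0.191, 0.0630 and 0.0579) and under cyclic loess (0.32, adjusted p = 0.0551). The rise of Prim2 is therefore a statement about 1 probe.

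The catalytic subunits did not pass. Pold1, the catalytic subunit of polymerase delta, read 10.05 and 10.09 in ESC and 10.13, 10.12 and 9.85 in N2B27 48 hr, a change of -0.04 (95% interval -0.27 to 0.19). Pole, that of polymerase epsilon, which makes the leading strand, read 6.41 and 6.94 in ESC and 7.29, 7.30 and 6.88 in N2B27 48 hr. The spread of Pole over the ESC arrays was the widest of the tested members, and its change of 0.48 ± 0.188 had an adjusted p of 0.0597. Without ESC replicate 2 it passed (0.75, adjusted p = 0.0288), as it did without N2B27 48 hr replicate 3 (0.62, adjusted p = 0.00832). For Pola1 and Prim1, the catalytic partners of Pola2 and Prim2, no array detected a probe.

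The clamp loader held the largest change of the set, and its subunits did not move alike. Of 9 clamp, loader and RPA genes 8 were tested, with 4 higher, 1 lower and a median of 0.31. Across all genes 23.8% were higher and 21.4% lower. Scaled to the median of all probes, 1 of the 8 (Rfc4) was higher, 0 were lower and their median was 0.06. Rfc4, a small loader subunit, read 7.02 and 6.77 in ESC and 7.37, 8.04 and 8.06 in N2B27 48 hr. It rose by 0.93 ± 0.198, or 1.91-fold (adjusted p = 0.00312), and N2B27 48 hr replicate 1 was the lowest of its group. Without that replicate the change was 1.16, and it was also above 2-fold without ESC replicate 1 (1.05) and with an offset of 1 (1.03). The dimmer probe of Rfc4 gave 0.39 ± 0.193 and did not pass (adjusted p = 0.126).

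Rfc5, another small subunit, read 8.51 and 8.75 in ESC and 9.47, 9.38 and 9.26 in N2B27 48 hr, a rise of 0.74 ± 0.111, or 1.67-fold (adjusted p = 0.000305). Rfc1, the large subunit, read 9.12 and 9.09 in ESC and 9.54, 9.50 and 9.72 in N2B27 48 hr, a rise of 0.48 ± 0.0992 (adjusted p = 0.00264). The groups did not overlap in either gene. Rfc2 read 10.30 and 10.32 in ESC and 10.46, 10.39 and 10.25 in N2B27 48 hr and did not pass, with a change of 0.05 (95% interval -0.15 to 0.25). Pcna, the clamp itself, changed by 0.28 (-0.06 to 0.63, adjusted p = 0.170), its groups overlapping.

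RPA coats single-stranded DNA as a complex of 3 subunits, and its large and small subunits went opposite ways. Rpa1, the large subunit, read 11.60 and 11.65 in ESC and 11.88, 11.88 and 11.87 in N2B27 48 hr, a rise of 0.25 ± 0.0704, or 1.19-fold (adjusted p = 0.0137). Rpa3, the small subunit, read 9.78 and 9.65 in ESC and 9.31, 9.30 and 9.37 in N2B27 48 hr, a fall to 1.31-fold lower (-0.39 ± 0.0917, adjusted p = 0.0057). Within each gene the groups stood apart. The call of Rpa1 was lost without either ESC array (adjusted p = 0.121 and 0.0611), under cyclic loess (0.11, adjusted p = 0.255) and without the variance trend (adjusted p = 0.0949), and that of Rpa3 when ESC replicate 1 was left out (adjusted p = 0.102). Rpa2 changed by 0.33 ± 0.153 (adjusted p = 0.106) and passed without N2B27 48 hr replicate 3 (0.49, adjusted p = 0.0024).

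A scaling factor common to an array cancels in the difference between the changes of 2 genes. The 7 pairs computed were chosen after the values were seen and are a description. Rpa1 minus Rpa3 shifted by 0.64 between the groups, and by 0.56 to 0.75 over the alternatives. Pold2 minus Pold1 shifted by 0.83 (0.74 to 0.86), and Rfc5 minus Rfc2 by 0.69 (0.58 to 0.81). For Mcm10 minus Mcm2 the shift was 0.45 (0.40 to 0.48), and for Pold2 minus Mcm5 0.76 (0.67 to 0.88). Wider ranges over the alternatives were found for Rfc4 minus Rfc2, 0.88 (0.34 to 1.15), and Rrm1 minus Rrm2, 0.41 (0.21 to 0.65). In each of the 7 pairs all 3 N2B27 48 hr arrays lay above both ESC arrays.

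**Figure D3:**
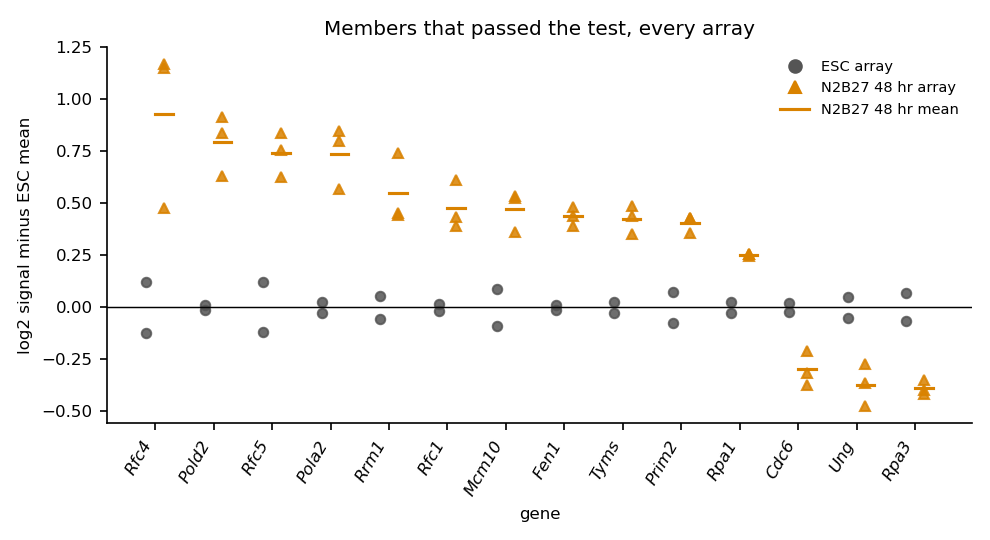
Log2 signal of the 14 members that passed, on each array, as the difference from that gene's ESC mean (y axis); circles are the 2 ESC arrays, triangles the 3 N2B27 48 hr arrays, and short bars the N2B27 48 hr mean. In every gene the triangles lie on one side of the circles, spread widest for Rfc4 and closest together for Rpa1; under scaling to the median of all probes these directions held and Rfc4 alone still passed.

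Of the genes that finish and untangle new strands, all 3 were tested and 1 rose. Higher calls made up 23.8% of all genes. Scaled to the median of all probes, 0 of the 3 passed. Fen1, the flap endonuclease that trims Okazaki fragments, read 10.01 and 10.04 in ESC and 10.51, 10.41 and 10.46 in N2B27 48 hr. It rose by 0.44 ± 0.0817, or 1.35-fold (adjusted p = 0.00138), with no overlap. Lig1, the ligase that seals the same fragments, changed by -0.05 (95% interval -0.27 to 0.17), and 0 of its 4 tested probes passed (-0.30 to 0.13). Top2a, a topoisomerase most abundant in G2 and mitosis, read 10.35 and 10.16 in ESC and 10.24, 10.19 and 9.90 in N2B27 48 hr, a change of -0.14 (-0.39 to 0.12).

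Genes of nucleotide supply rose or did not pass, and the 1 fall of this step was that of the uracil removal gene Ung. All 5 genes of the step were tested, 2 rose (Rrm1 and Tyms), and the median change was 0.13. Higher calls made up 23.8% of all genes and lower calls 21.4%. Scaled to the median of all probes, 0 of the 5 passed. Rrm1, the large subunit of ribonucleotide reductase, read 8.22 and 8.33 in ESC and 8.72, 8.73 and 9.02 in N2B27 48 hr. It rose by 0.55 ± 0.119, or 1.46-fold (adjusted p = 0.00351), but leaving out ESC replicate 1 ended the call (0.49, adjusted p = 0.0555). Rrm2, the small subunit, whose amount in other cells follows S phase, read 7.92 and 8.07 in ESC and 8.24, 8.23 and 7.92 in N2B27 48 hr. Its groups overlapped, with a change of 0.13 (95% interval -0.15 to 0.42) and -0.08 by its other probe.

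Tyms encodes thymidylate synthase, which makes dTMP. Its brightest probe read 10.45 and 10.40 in ESC and 10.86, 10.91 and 10.78 in N2B27 48 hr, a rise of 0.43 ± 0.0817, or 1.34-fold (adjusted p = 0.0016). The 3 other tested probes gave 0.15, 0.08 and 0.03 and none passed (adjusted p from 0.472 to 0.908). Dut, the dUTPase that keeps uracil out of DNA, changed by -0.24 ± 0.162 (adjusted p = 0.268), with overlapping groups. Ung, the glycosylase that removes uracil from DNA, read 10.67 and 10.57 in ESC and 10.34, 10.14 and 10.26 in N2B27 48 hr. It fell by 0.37 ± 0.0904 on the log2 scale, or 1.29-fold (adjusted p = 0.00676), a call that did not hold when ESC replicate 1 was left out (adjusted p = 0.0946). A dimmer Ung probe gave -0.14 (adjusted p = 0.551).

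Probes of 1 gene gave the same call in 7 of the 13 members with at least 2 tested probes. In the other 6, Cdc6, Mcm4, Prim2, Rfc4, Tyms and Ung, some probes passed and others did not, and in 0 members did probes pass in opposite directions. Signs differed among probes in Orc2, Mcm6, Prim2, Lig1 and Rrm2. Of the 14 called members 8 rest on a single tested probe. When each gene was read by its dimmest tested probe instead, 8 members were higher and 1 lower. The groups were free of overlap in all 14 called members and in 20 of 36 members (55.6%), against 65% of all genes.

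**Figure D4:**
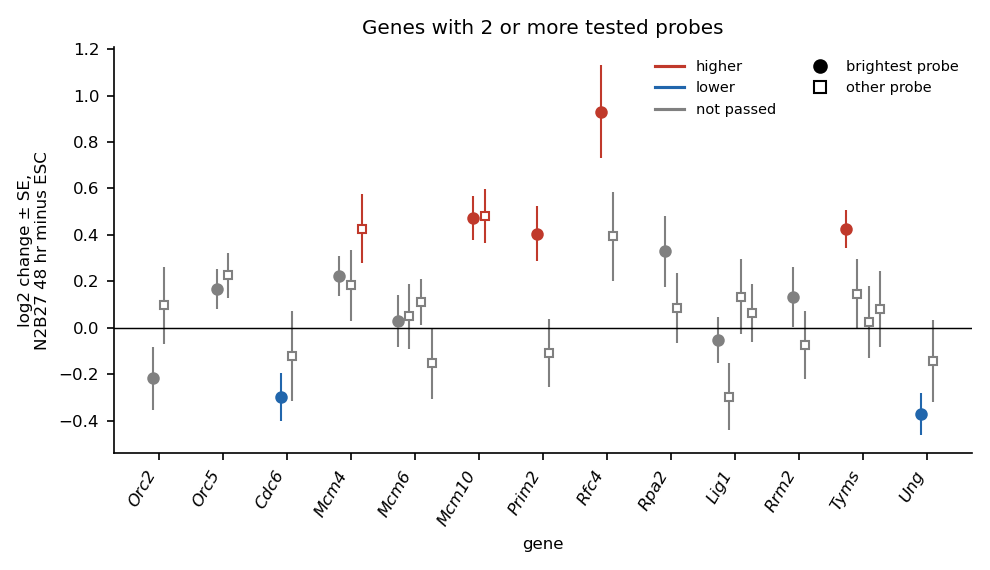
Log2 change with its standard error (y axis) for every tested probe of the 13 members that have at least 2; filled circles are the brightest probe, open squares the others, and colours give the call. Both Mcm10 probes sit near 0.48, while for Prim2, Rfc4, Tyms and Ung the dimmer probes lie nearer 0 than the brightest or across it.

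Other genes of the pathway, from lists of related function, were counted in the same fit. Of 40 further replication genes 29 were tested, and 8 rose and 3 fell (median 0.19, against 0.05 for all tested genes). That is 37.9% called, against 45.2% of all genes, and 27.6% higher against 23.8%. Top1, topoisomerase I, was 2.61-fold higher (1.38 ± 0.132, adjusted p = 1.1e-05) and Pclaf, a PCNA-binding factor, 2.39-fold higher (1.26 ± 0.14). Pole4, a small subunit of polymerase epsilon, was 2.21-fold lower (-1.14 ± 0.145, adjusted p = 9.6e-05). Rif1, a regulator of origin timing, was at least 1.95-fold lower (adjusted p = 0.00204), 1 N2B27 48 hr array still detecting it. The bound sets its ESC mean against the higher of its own value and the lowest detected value on each array. Among 22 further nucleotide supply genes 19 were tested, with 12 higher (63.2%, against 23.8% of all genes), 1 lower (5.26% against 21.4%) and a median of 0.38. The purine enzyme gene Atic was 1.83-fold higher (0.87 ± 0.0953) and the thymidine kinase gene Tk1 1.70-fold higher (0.76 ± 0.0999). Rrm2b, the p53-induced small subunit of ribonucleotide reductase, was at least 1.35-fold lower (adjusted p = 0.0185).

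Genes of mitosis fell or did not pass. Of 30, 20 were tested, with 0 higher (2 at an unadjusted p under 0.05), 7 lower and a median of -0.16 in the limma fit. Lower calls were thus 35% against 21.4% of all genes, and calls in either direction 35% against 45.2%. The largest falls were those of the spindle genes Nusap1 (-0.79 ± 0.0843) and Prc1 (-0.64 ± 0.0838). In the E2F and RB family 3 of 10 tested rose and 3 fell (median 0.08), each 30% against 23.8% and 21.4% of all genes. Tfdp1, the E2F dimer partner, was 2.28-fold higher (1.19 ± 0.0976) and the repressor gene E2f6 2.18-fold higher (1.13 ± 0.105), whereas Rb1 was 2.09-fold lower (-1.07 ± 0.18) and E2f1 1.78-fold lower (-0.84 ± 0.101). The differences between lists were not tested. Scaled to the median of all probes, the counts of higher and lower became 2 and 3 for further replication genes, 0 and 2 for nucleotide supply, 0 and 4 for mitosis and 2 and 3 for the E2F family. Without ESC replicate 1 they were 6 and 3, 7 and 0, 0 and 3, and 3 and 3, and without ESC replicate 2 they were 5 and 2, 9 and 0, 0 and 3, and 3 and 3. Without N2B27 48 hr replicate 3, mitosis genes stood at 4 higher and 7 lower, and without replicate 1 nucleotide supply stood at 11 and 3.

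**Figure D5:**
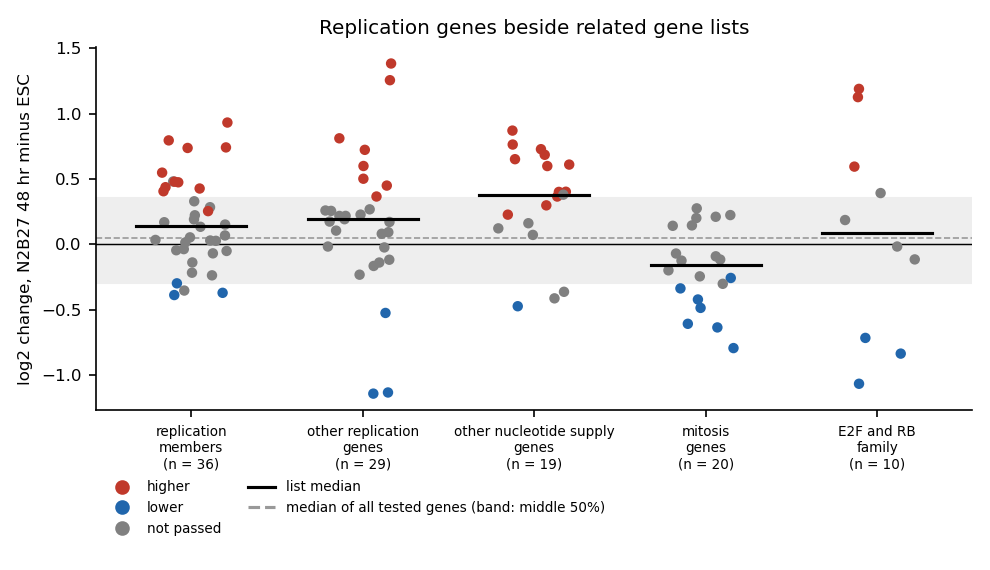
Log2 change (y axis) of every tested gene in 5 lists; colours give the call, black bars the list medians, the dashed line the median of all tested genes and the band their middle 50% (-0.30 to 0.36). The replication members have a median of 0.14, the nucleotide supply genes are centred higher (0.38) and the mitosis genes lower (-0.16); scaled to the median of all probes, the medians were -0.09, 0.14 and -0.37.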

How the data were processed

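Per the file headers, the deposited intensity of a probe is an average bead signal on a linear scale, and a detection p-value is deposited beside it. The submitters' processing notes name BeadStudio. Its version, and whether background was subtracted, are not given in the sources used here. A second deposited table of the same arrays holds the authors' normalized intensity values and was used as an alternative.

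The background correction was limma's nec (limma 3.58.1, R 4.3.3), which infers the controls from the detection p. After adding an offset of 16, log2 values were quantile normalized between arrays, and changes of dim genes are understated. Probes with a detection p under 0.05 on at least 2 of the 5 arrays entered the fit (12605 of 25697, 8828 named genes). N2B27 48 hr was compared with ESC by lmFit and eBayes with a variance trend, two-sided, Benjamini-Hochberg over all probes in the fit, checked on simulated data. Values after ± are standard errors. The brightest tested probe represented a gene. Symbols came from the platform annotation, updated through a RefSeq table (GRCm38.p6). The number of arrays limits the precision. Figures used matplotlib 3.10.9.

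Members and lists were chosen with earlier results of these data known. Every member may be named, array values are given for the largest changes of each step and where probes disagree (and for other members chosen after their values were seen), and each other list gives its 2 largest calls each way. Alternatives covered background, offset, scaling, the authors' values, detection filters, the variance trend, the replicate block, the dimmest probe and leaving out each array.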

Additional observations from a re-analysis of the deposited data

How the results depend on the processing

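The 11 higher and 3 lower calls among the members, and their median change of 0.14, were recomputed under 19 alternatives. Scaling each array to the median of all its probes gave 1 higher and 0 lower with a median of -0.089. The falls of Cdc6, Rpa3 and Ung then read -0.56, -0.59 and -0.55 and their calls were lost. That scaling also moved the median of all genes by -0.155. Reading each gene by its dimmest tested probe gave 8 higher and 1 lower, and Prim2 then turned to -0.11. Leaving out 1 array at a time gave 0 to 3 lower calls, the 0 without ESC replicate 1, and 8 to 13 higher. With 1 ESC array left, that array is assumed to vary like the other group. The replicate block gave 15 higher and 3 lower and kept all 14 calls. N2B27 48 hr replicate 3 has no ESC partner, so a block term of its own takes up that array. The block is thus close to leaving that array out (polymerase median 0.620 against 0.618). Deviations from the group mean had correlations of -0.085 and -0.028 between samples sharing a number. With 2 ESC arrays these deviations mirror each other, so the correlations cannot show whether a batch was shared. Under the authors' normalized values, no background correction, normexp without controls, offsets of 50 and 1, and both stricter detection filters all 14 calls were kept as well. All 14 kept their sign in every alternative except Prim2 by its dimmer probe. Over all genes, median scaling gave 760 higher and 1802 lower against 2100 and 1889, so 29.7% of called genes were higher against 52.6%. Leaving out ESC replicate 1 or 2 gave 1327 and 1272 higher and 1078 and 1068 lower. The causes were not tested. With 2 and 3 arrays, small changes of dim members such as Orc2 and Pcna are poorly resolved.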
